A study of Mus musculus with 37 samples.

Results

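The normal mouse cerebellum was compared between 4 months and 1 month of age in RNA libraries, 1 from a 4-month-old and 3 from 1-month-old animals. They are 4 of the 37 samples of the series, which asks what loss of MLL4, a methyltransferase of lysine 4 of histone H3, does in the brain. All 4 come from Mll4f/f mice of strain C57BL/6, called WT, which carry the floxed allele without the brain-specific deletion. Total RNA was taken from cerebellar tissue with Trizol and sequenced on a HiSeq machine. The labels do not say whether the 3 libraries of 1 month came from separate animals or whether tissue was pooled, so their spread may be technical. Of the 29955 genes listed in the authors' table, the 14714 whose mean reached 1 FPKM (fragment counts divided by transcript length and library size) over the 4 libraries were examined. The libraries with the deletion were not used.

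The cerebellum is built mostly of granule neurons, small excitatory cells whose axons run as parallel fibres to the Purkinje cells, the sole output of its cortex. In the mouse, granule neurons are born, migrate and form their synapses in the first weeks after birth, so that at 1 month production has ended and refinement of synapses and myelin goes on. Bergmann glia are the astrocytes that ensheath Purkinje dendrites, and oligodendrocytes myelinate the tracts.

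The defining markers of the labelled tissue were present in all 4 libraries. Gabra6, the GABA-A receptor subunit restricted largely to cerebellar granule neurons, stood at 219, 213 and 217 FPKM in 1-month replicates 1, 2 and 3 and at 134 FPKM at 4 months. Of the Purkinje cell markers, Car8, a carbonic anhydrase-like protein that binds the IP3 receptor, was at 223, 227 and 189 FPKM and then at 184 FPKM. All 20 granule neuron and all 20 Purkinje cell markers passed the filter, against 9 of 16 forebrain markers. The absolute depth is unknown because the table holds no counts. Taken from the steps between low FPKM values, depth relative to 1-month replicate 1 was 0.970 and 0.730 in replicates 2 and 3 and 0.858 at 4 months. The number of genes above 0 FPKM ran from 19570 to 19800. One-month replicates 1 and 2 differed by a median of 0.08 (absolute log2 difference over the 7340 genes that averaged 10 FPKM or more), and replicate 3 differed from them by 0.19 and 0.18. Whether replicates 1 and 2 are separate libraries could not be tested without counts. The 4-month library differed from the 3 others by 0.38 to 0.41. With 1 library at 4 months, age cannot be told apart from the animal, the dissection or the preparation of that library.

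A gene was called higher or lower where its log2(FPKM + 1) at 4 months lay outside the range of the 3 libraries of 1 month and at least 1 (2-fold) from their mean. By this rule 369 genes (2.51%) were higher and 556 (3.78%) lower at 4 months, 6.29% in all. Without the fold requirement, 29.4% lay above the 1-month range and 47.4% below it. No p-value belongs to these calls, and the values of a called gene do not overlap between the ages by construction. Rose and fell are used of called genes alone. The median difference over all genes was -0.13, so a gene that moved with the whole scale lies slightly below 0. Every difference given, also in brackets after the levels, is one of log2(FPKM + 1), 4 months minus the mean of 1 month, before any recentring. Recentring each library on its median turned the split to 582 higher and 372 lower (61.0% higher against 39.9%). Shares of higher and lower calls are therefore not read, while the gene groups described here are compared with the -0.13 of all genes. Counts of calls in a list or family are to be set against the 2.51% higher and 3.78% lower of all genes. Counts beyond the range are to be set against 29.4% above and 47.4% below.

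**Figure D1:**
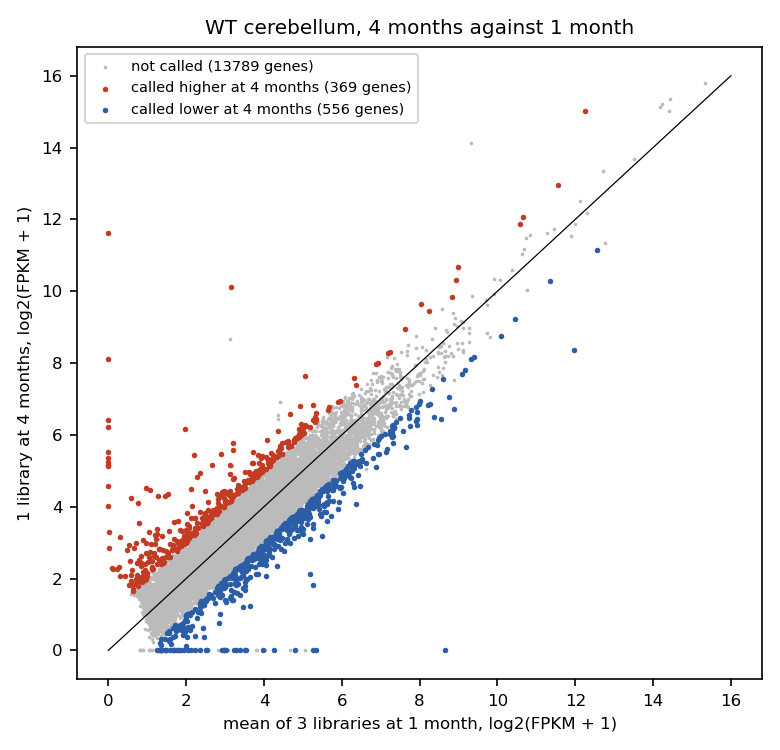
Each point is 1 of 14714 genes, placed by the mean log2(FPKM + 1) of the 3 libraries of 1 month (x axis) and the log2(FPKM + 1) of the library of 4 months (y axis), with the line of equality. The 369 genes called higher (red) and the 556 called lower (blue) lie at both low and high levels.

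Genes of the growing axon and the immature neuron lay lower at 4 months. Of the 24 genes of young neurons, 20 were examined and 6 were called lower, none higher, with a median difference of -0.53 (-0.40 relative to all genes). Gap43, a growth cone protein, had 99.1, 83.2 and 65.4 FPKM at 1 month and 15.99 FPKM at 4 months, a difference of -2.28. D0H4S114, an older symbol of Nrep, a neuronal protein linked to regeneration, went from 305, 304 and 393 FPKM to 89.97 FPKM (-1.87). Tmsb10, which binds actin monomers, was at 17.9, 18.5 and 26.2 FPKM and then at 6.05 FPKM (-1.61). Stmn1, which destabilises microtubules, Marcksl1, an actin-regulating MARCKS relative, and the tubulin gene Tuba1a also fell, with differences of -1.35, -1.33 and -1.30. The neuronal tubulin Tubb3 had a difference of 0.18, and the cell adhesion gene Ncam1 one of -0.36. Stmn2, a stathmin of growth cones, stood at 161, 171 and 215 FPKM and then at 110.1 FPKM (-0.71), below the range and under the fold. Dcx, the doublecortin of migrating neurons, was at 2.97, 2.68 and 12.9 FPKM at 1 month, high in replicate 3 alone, and at 3.13 FPKM at 4 months. Without replicate 3 the median of the young neuron genes was -0.31, with 5 called lower, and Marcksl1 was not among them. None of the 11 examined genes of cell division was called, and Pcna, the DNA polymerase clamp, was at 7.93, 9.40 and 5.70 FPKM at 1 month and 7.08 FPKM at 4 months.

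Granule neuron genes mostly lay lower at 4 months, with a few above the range. Of the 20 genes, 4 were called lower and none higher, 13 lay below the 1-month range and 3 above it, and the median difference was -0.43. Calb2, the calcium buffer calretinin, had 252, 246 and 218 FPKM at 1 month and 82.5 FPKM at 4 months (-1.52). Neurod1, a transcription factor of granule neuron differentiation, had 155, 151 and 183 FPKM and then 71.4 FPKM (-1.17). Cbln1, the secreted organiser of the parallel fibre synapse, had 267, 248 and 200.4 FPKM and then 109 FPKM (-1.11). Pax6, a developmental regulator, fell too, with a difference of -1.02. With libraries shifted to one median or quantile normalized, 2 genes were called lower, as Cbln1 and Pax6 lost their call, and Pax6 also lost it without replicate 1 or replicate 2. The 3 genes above the range were Grin2c, Kcnk9 and Slc17a7. Grin2c, the NMDA receptor subunit of mature granule neurons, stood at 66.2, 69.9 and 65.2 FPKM at 1 month and 101 FPKM at 4 months, a difference of 0.59 that did not reach the 2-fold rule. The potassium channel gene Kcnk9 (TASK-3) had a difference of 0.59 and the vesicular glutamate transporter gene Slc17a7 one of 0.15. Gabra6 had a difference of -0.68, the granule neuron transcription factor Zic1 one of -0.45 and the cerebellin Cbln3 one of -0.59, all below the 1-month range and under the fold. The summed FPKM of the list was 2592, 2521 and 2540 at 1 month and 1759 at 4 months. In bulk tissue, fewer cells of a type and less RNA per cell cannot be told apart.

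Of 20 Purkinje cell genes, 3 were called lower and none higher, and the median was -0.23. Pcp2, a modulator of G proteins in Purkinje cells, went from 517, 429 and 365 FPKM to 132 FPKM (-1.71). Pcp4, a calmodulin-binding peptide, went from 632, 559 and 526 FPKM to 222 FPKM (-1.36), and Pvalb, the calcium buffer parvalbumin, from 438, 388 and 335 FPKM to 187 FPKM (-1.03). Replicate 3 was the lowest of the 1-month libraries in all 3 genes. Pvalb, close to the 2-fold limit, was not called without replicate 1 or under the 3 other scalings tried, in which libraries were shifted to one median, rescaled without small RNA symbols or quantile normalized. Other abundant Purkinje cell genes were not called. Itpr1, the IP3 receptor, was at 484, 472 and 357 FPKM at 1 month and at 356 FPKM at 4 months (-0.28), next to replicate 3. The buffer gene Calb1 had a difference of -0.26, and the glycolytic marker Aldoc had one of -0.11.

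Of the 17 examined genes of inhibitory interneurons, 2 were higher, 2 lower and the median was 0.06. Pax2, a transcription factor of interneuron precursors, was at 1.72, 1.33 and 1.53 FPKM at 1 month and at 6.07 FPKM at 4 months (1.49). Slc6a5, the glycine transporter GlyT2 of Golgi cells, was at 12.2, 12.6 and 26.8 FPKM and then at 35.9 FPKM (1.11), with replicate 3 nearer to the 4-month value than to the other replicates, and was not called without replicate 1 or replicate 2. The median of the list was -0.05 without replicate 2. The neuropeptide genes were lower, Npy at 22.02, 16.7 and 10.01 FPKM and then 3.18 FPKM (-1.98) and Sst at 30.2, 28.5 and 28.5 FPKM and then 11.9 FPKM (-1.23). The GABA-synthesising enzyme genes Gad1 and Gad2 had differences of -0.49 and -0.32. Neither was called.

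**Figure D2:**
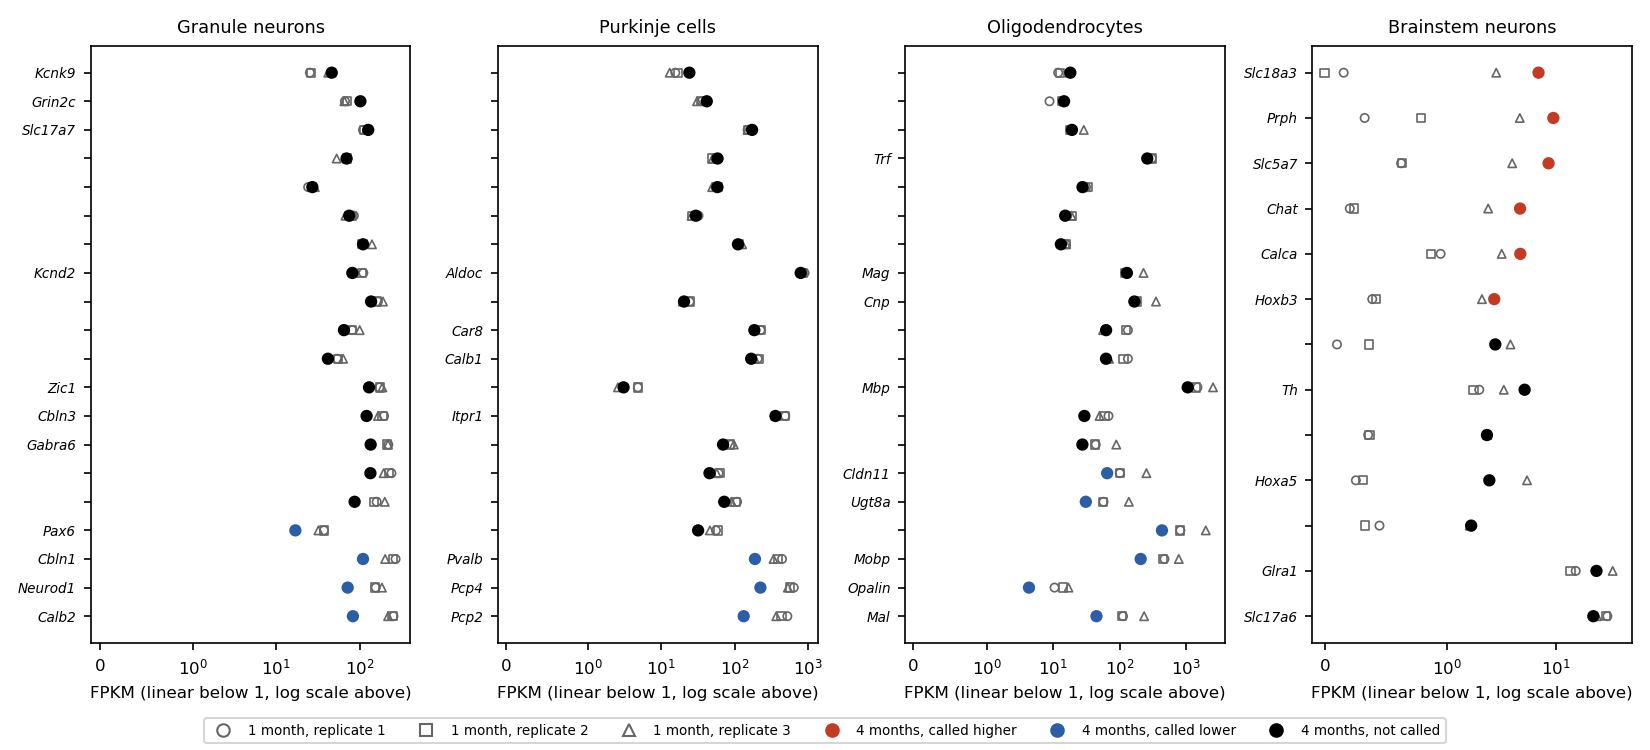
FPKM (x axis, linear below 1 and logarithmic above) of every examined gene in 4 lists of cell type genes, sorted by the difference and labelled where the text describes them, with the 3 libraries of 1 month as open symbols and the library of 4 months as a filled circle. Granule neuron, Purkinje cell and oligodendrocyte genes called lower (blue) sit at the bottom of their panels. In 8 of the 13 brainstem genes the 4-month library lies above every library of 1 month, replicate 3 (triangle) included.

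Of 20 genes of Bergmann glia and astrocytes, 1 was called higher and 2 were called lower, 4 without replicate 3, and the median was -0.18, near that of all genes. Fabp7, a fatty acid binding protein of radial and Bergmann glia, had 53.3, 67.9 and 54.8 FPKM at 1 month and 14.3 FPKM at 4 months (-1.96). Sparcl1, a secreted synapse-promoting glycoprotein, had 729, 666 and 643 FPKM and then 288 FPKM (-1.23). Of the glutamate transporter genes, Slc1a2 had a difference of 0.55 and Slc1a3, the Bergmann glia form, one of -0.48. The intermediate filament gene Gfap stayed at 80.6, 83.2 and 87.4 FPKM and 77.04 FPKM, and Ndrg2 had a difference of -0.04.

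Oligodendrocyte genes were lower, with a 1-month replicate that stood apart. Of 20 genes, 6 were called lower, none higher, and the median was -0.67. Mobp, a myelin protein gene, was at 469, 447 and 769 FPKM at 1 month and at 206 FPKM at 4 months (-1.40), and Mal, a raft protein of myelin, at 112, 107 and 232 FPKM and then at 44.7 FPKM (-1.63). In both genes replicate 3 was the highest library and 4 months the lowest. Ugt8a, which makes the myelin lipid galactosylceramide, Cldn11, the tight junction claudin of myelin, and Opalin, an oligodendrocyte membrane protein gene, also fell, with differences of -1.27, -1.07 and -1.45. Mbp, the myelin basic protein gene and the most abundant of the list, had 1466, 1385 and 2514 FPKM at 1 month and 1048 FPKM at 4 months, below the range but with a difference of -0.72. Cnp had a difference of -0.42, Trf of -0.16 and Mag of -0.24. The summed FPKM of the list was 4104, 3974 and 7110 at 1 month and 2669 at 4 months, and without replicate 3 the median was -0.54 with 5 genes called, Ugt8a and Cldn11 not among them. Cldn11 also lost its call under the 3 other scalings. Of the 16 precursor genes, 2 were called lower. Enpp6, a choline phosphodiesterase of newly forming oligodendrocytes, went from 8.47, 7.42 and 18.1 FPKM to 2.43 FPKM (-1.74), and the receptor gene Gpr17 from 10.9, 10.1 and 31.8 FPKM to 4.85 FPKM (-1.48). The precursor receptor Pdgfra itself had a difference of -0.03. Without replicate 3 Gpr17 was not called.

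None of 18 microglial genes was called, with a median of 0.08. Csf1r, the growth factor receptor on which microglia depend, was at 11.5, 10.8 and 11.8 FPKM at 1 month and 15.9 FPKM at 4 months (0.45). The complement subunit genes C1qa and C1qb had differences of 0.04 and 0.16, and the lysosomal protease gene Ctss had one of -0.44. Of the 18 interferon and antigen presentation genes, 2 were called higher, with a median of 0.40. Tap2, the peptide transporter subunit, was at 3.13, 3.08 and 1.76 FPKM and then 6.65 FPKM (1.09), and Ifit3, an interferon-induced gene, at 3.83, 3.16 and 0.984 FPKM and then 6.03 FPKM (1.04). Replicate 3 was the lowest library for both, and without it neither was called and the median was 0.26. H2-D1, a class I heavy chain, had a difference of 0.41 and the light chain gene B2m one of -0.44. Of 15 complement and reactive glia genes, Lcn2 and C4b were called higher. C4b, complement component 4, went from 2.60, 2.41 and 2.16 FPKM to 5.83 FPKM (1.01). The lipid carrier genes Apoe and Clu had differences of -0.66 and -0.46, and without replicate 3 the list had 1 call and its median turned from 0.16 to -0.02.

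Potassium channel and postsynaptic density genes mostly lay above the 1-month range, under the 2-fold rule in nearly every case. Of 35 potassium channel genes, 23 were above the 1-month range and 8 below, against 29.4% and 47.4% of all genes, with a median of 0.20 and 2 called higher. Among the abundant members that were not called, Kcnc1, a fast Kv3 channel, had a difference of 0.55, the Kv1 gene Kcna1 one of -0.06 and the A-type channel gene Kcnd2 one of -0.29. Of 25 sodium and calcium channel genes, 8 were above the range and 10 below, with a median of -0.004, and 1 was called. Scn4b, the beta subunit of the resurgent sodium current, was at 33.6, 31.9 and 28.5 FPKM at 1 month and 71.9 FPKM at 4 months (1.18). The P/Q-type calcium channel gene Cacna1a had 144, 150.2 and 218 FPKM at 1 month and 217 FPKM at 4 months (0.37), within the range because replicate 3 was as high. Another beta subunit gene, Scn2b, differed by -0.004.

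Of 18 ionotropic glutamate receptor genes, 2 NMDA receptor subunit genes of low level were higher, and the median was 0.11. Grin2d was at 2.27, 2.16 and 3.07 FPKM at 1 month and at 6.88 FPKM at 4 months (1.18), and Grin3b was at 0.643, 0.771 and 1.35 FPKM and then at 3.28 FPKM (1.17). The AMPA receptor subunit genes Gria2 and Gria4 had differences of -0.27 and -0.36 and the obligatory NMDA subunit gene Grin1 one of 0.27. None of 18 GABA-A and glycine receptor genes was called, with 11 below the range, 1 above and a median of -0.32.

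On the release side, 1 of 27 genes was called higher and 1 lower, with 13 above the range, 9 below and a median of 0.11. Bsn, the active zone scaffold bassoon, was at 49.6, 52.7 and 47.9 FPKM at 1 month and 109 FPKM at 4 months (1.11). Syt1, the calcium sensor of fast release, was at 180.2, 165 and 126 FPKM and then at 75.4 FPKM (-1.03), and without replicate 1 or replicate 2, or under the 3 other scalings, it was not called. The SNARE gene Snap25, the most abundant of the list, had a difference of -0.89, the vesicle protein gene Syp one of 0.05 and the vesicle GTPase gene Rab3a one of -0.85. Of 20 postsynaptic density genes, 12 were above the range and 5 below, with a median of 0.12. Shank1, a master scaffold, was at 39.5, 46.2 and 27.6 FPKM and then at 113 FPKM (1.58). Its relatives were also above the range, Shank3 with a difference of 0.998 and Shank2 with 0.77, neither called, Shank3 just under the fold. Nrgn, the calmodulin-binding peptide neurogranin, was at 13.8, 14.9 and 7.13 FPKM at 1 month and 1.36 FPKM at 4 months (-2.40), the largest fall with a current symbol under the naming rule. The kinase gene Camk2b differed by 0.06, Dlgap1 by 0.09, Homer3 by 0.30 and Dlg4, encoding PSD-95, by 0.44.

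**Figure D3:**
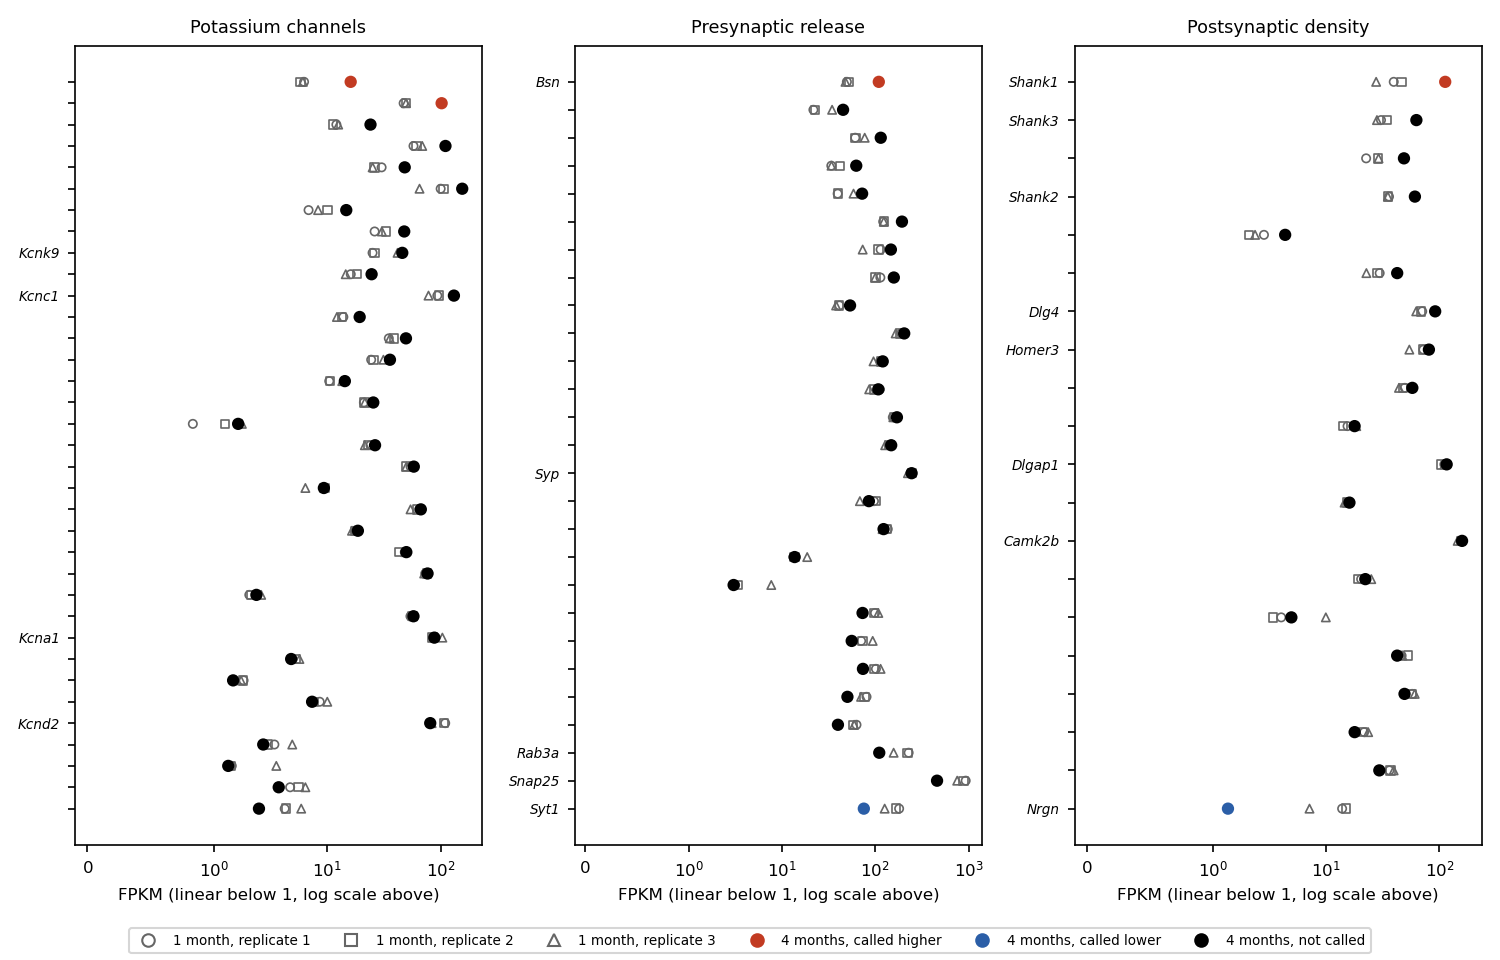
FPKM (x axis, linear below 1 and logarithmic above) of the examined potassium channel, presynaptic and postsynaptic genes, sorted by the difference, with 3 open symbols for 1 month and a filled circle for 4 months. Called genes are coloured, among them Bsn and Shank1 in red and Syt1 and Nrgn in blue, genes the text does not describe have no label, and most genes shift by less than 2-fold.

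Nuclear genes of oxidative phosphorylation, which encode most subunits of the mitochondrial respiratory chain, lay lower at 4 months. Of 30 genes, 9 were called lower and none higher, 26 were below the range and 1 above it, and the median was -0.74. Cox8a, a subunit of cytochrome c oxidase, was at 404, 333 and 379.9 FPKM at 1 month and 85.8 FPKM at 4 months (-2.10). Cox5b, another oxidase subunit, was at 22.02, 29.3 and 27.99 FPKM and then at 7.73 FPKM (-1.64), and Atp5g1, of the ATP synthase ring, at 66.4, 49.1 and 47.1 FPKM and then at 16.997 FPKM (-1.60). Cox5a and the complex I genes Ndufb9 and Ndufa1 fell too, with differences of -1.45, -1.20 and -1.17. The most abundant members that were not called differed less, Atp5a1 by -0.05, Atp5b by -0.44, Cox4i1 by -0.65 and Ndufa4 by -0.73. The same direction held across symbol families counted after their values were seen. In the complex I genes named Nduf, 14 of 42 were lower and none higher (median -0.80), in the Atp5 genes 6 of 16 (-0.80), and in the mitochondrial ribosome genes Mrpl and Mrps 14 of 75 (-0.57). None of 17 glycolysis genes was called (median -0.11), among them Aldoa with a difference of -0.54, Eno2 with 0.17 and Pkm2 with 0.39.

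Proteasome genes shared the direction, with 5 of 25 called lower, none higher, 24 below the range and a median of -0.66. Psmb2, a core particle subunit, was at 56.9, 52.4 and 50.6 FPKM at 1 month and 21.02 FPKM at 4 months (-1.30), and Psmc1, an ATPase of the cap, was at 36.9, 39.8 and 31.05 FPKM and then at 14.9 FPKM (-1.21). Psmc5, Psmd14 and Psmb7 fell, with differences of -1.18, -1.04 and -1.03. Under the 3 other scalings 3 genes were called, without Psmd14 and Psmb7, and Psmb7 was not called without replicate 3. Psmb4, Psmc4, Psmd4 and Psma7 were the most abundant of the uncalled members, with differences from -0.44 to -0.23. Of 29 ribosomal protein genes, 21 lay below the range and 2 were called lower, among them Rps19 with a difference of -1.35, and the median was -0.46. Ribosomal protein genes have many processed copies with which reads may be shared, so their single values are uncertain. Rpl14, among the 15 largest falls, was at 41.2, 42.6 and 24.4 FPKM and then at 7.53 FPKM (-2.08). Among 17 heat shock genes, Hspe1, the mitochondrial cochaperonin, was at 22.05, 20.3 and 18.8 FPKM and then at 7.91 FPKM (-1.26), and the small heat shock gene Cryab had a difference of -1.18. The cytosolic chaperone genes Hsp90ab1 and Hspa8 differed by -0.82 and -0.81. A further family, the small X-linked Bex and Tceal genes, counted after their values were seen, had 6 of 8 members lower and a median of -1.52. Tceal5 was at 20.2, 24.3 and 14.2 FPKM at 1 month and 4.07 FPKM at 4 months (-1.99).

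**Figure D4:**
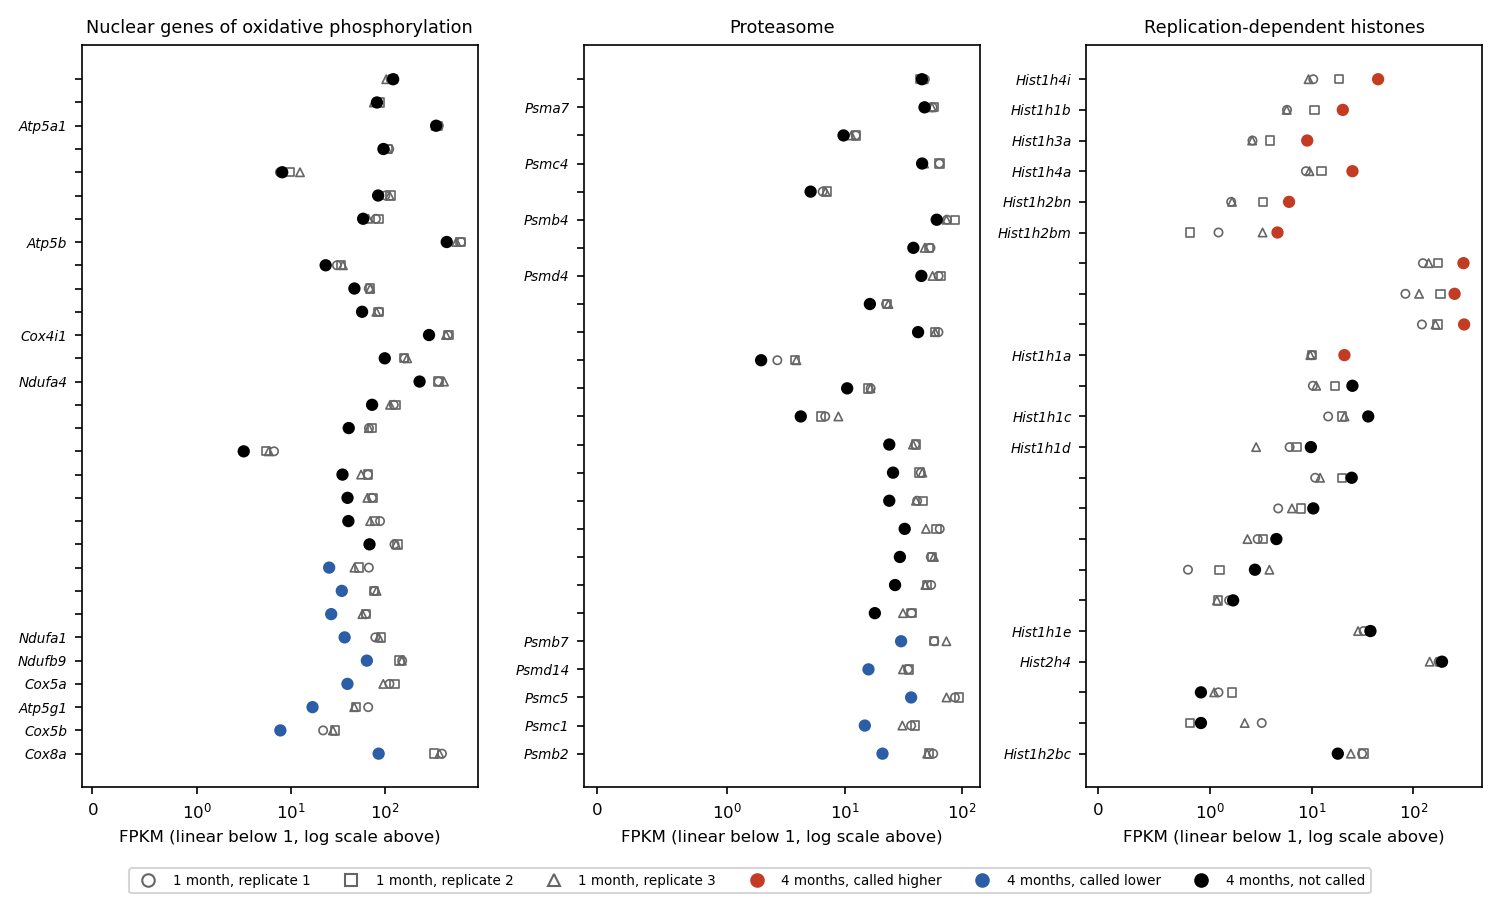
FPKM (x axis, linear below 1 and logarithmic above) of the examined oxidative phosphorylation, proteasome and replication-dependent histone genes, sorted by the difference and labelled where the text describes them, with 3 open symbols for 1 month and a filled circle for 4 months. Nearly every gene of the first and second panels has its 4-month value at the left of its 1-month values, and 10 of the 23 histone genes are called higher (red).

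Replication-dependent histone genes ran the other way. Their messages end in a stem-loop in place of a poly(A) tail, and they are made mainly in S phase. Of the 23 examined, 10 were called higher, none lower, 19 were above the range and the median was 0.94. Without the filter 10 of 31 were called higher and the median was 0.66. Hist1h4i, a histone H4 gene, was at 10.3, 18.5 and 9.27 FPKM at 1 month and 44.9 FPKM at 4 months (1.80). The linker histone gene Hist1h1b was at 5.69, 10.6 and 5.65 FPKM and then at 20.2 FPKM (1.40), and Hist1h1a at 9.92, 10.04 and 9.65 FPKM and then at 20.9 FPKM (1.01). Replicate 2 was the highest of the 1-month libraries in all 3 genes, and Hist1h1a was not called without replicate 3. Hist1h3a, Hist1h4a, Hist1h2bn and Hist1h2bm rose by 1.33, 1.23, 1.17 and 1.12, and Hist1h2bm was not called without replicate 2. The list had 7 calls and a median of 0.81 without replicate 1, and 13 calls and a median of 1.02 without replicate 2. Of the uncalled members, Hist2h4 was at 177, 183 and 145 FPKM and then 191 FPKM (0.19), Hist1h1e differed by 0.21, Hist1h1c by 0.94 and Hist1h2bc by -0.66. Reads of near-identical histone copies may be divided among them, so single genes are uncertain. Symbols of short RNAs, which also lack a poly(A) tail, held 31.9%, 44.7% and 36.1% of all FPKM at 1 month and 48.2% at 4 months. Of 6 other RNAs without a tail, Rnu11, a minor spliceosome RNA, was called lower at 10140.2, 9017 and 2416 FPKM and then 2252 FPKM, close to replicate 3, while Rmrp, the RNA of RNase MRP, had a difference of 0.98 and Rpph1, of RNase P, one of 0.18. Whether the share of RNAs without a tail in each library bears on the histone values was not tested. None of 11 long non-coding RNAs of the nucleus was called (median -0.05), and Malat1, the most abundant, had 3115, 3166 and 5642 FPKM at 1 month and 2989.8 FPKM at 4 months.

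The promoters of Hist1h1a and Hist1h1b, the linker histone genes that were called higher, are shown because they carry promoter elements typical of the class. Of the other linker histone genes examined, Hist1h1c, Hist1h1d and Hist1h1e were above the range with differences of 0.94, 0.84 and 0.21, none called. The promoters are given with TATAAA (given strand) and CCAAT (either strand, where it reads CCAAT or ATTGG) in capitals. The sequences are RefSeq's in build GRCm38.p6, 250 bases before to 50 after the annotated start. Hist1h1a, now H1f1, lies at chr13:23763418-23763717 on the plus strand and Hist1h1b, now H1f5, at chr13:21780576-21780875 on the minus strand.
H1f1: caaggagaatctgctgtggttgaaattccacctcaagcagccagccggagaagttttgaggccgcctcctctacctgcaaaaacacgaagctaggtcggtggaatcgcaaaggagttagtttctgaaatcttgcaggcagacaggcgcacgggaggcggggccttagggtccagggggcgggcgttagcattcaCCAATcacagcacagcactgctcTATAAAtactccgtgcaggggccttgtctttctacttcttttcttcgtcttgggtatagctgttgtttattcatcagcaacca
H1f5: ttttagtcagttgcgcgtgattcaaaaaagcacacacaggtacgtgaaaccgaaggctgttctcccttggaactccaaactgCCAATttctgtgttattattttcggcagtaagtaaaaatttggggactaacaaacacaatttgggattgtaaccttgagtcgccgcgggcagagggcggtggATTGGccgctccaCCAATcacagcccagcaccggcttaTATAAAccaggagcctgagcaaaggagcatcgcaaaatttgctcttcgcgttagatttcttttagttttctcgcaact
TATAAA begins at position -33 from the start in H1f1 and at -28 in H1f5. Of the 20 examined histone genes with a promoter in the table, 45.0% held TATAAA and 90.0% CCAAT, against 8.32% and 37.4% of all 32851 promoters.

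Of 3 metallothionein genes examined, whose small cysteine-rich products bind zinc and copper, Mt1 and Mt2 were called lower. All 3 lay below the 1-month range. Mt1 was at 463, 425 and 546 FPKM at 1 month and at 105 FPKM at 4 months (-2.16). Mt2 was at 130.2, 127 and 173 FPKM and then at 47.4 FPKM (-1.56). All 3 libraries of 1 month lay far above 4 months in both. Their promoters are shown because metal-responsive transcription acts on these genes through a short core element, searched here as TGCACNC or TGCGCNC on either strand and set in capitals (RefSeq, GRCm38.p6, same window). Mt1 lies at chr8:94178839-94179138 on the plus strand and Mt2 at chr8:94172368-94172667 on the plus strand.
Mt1: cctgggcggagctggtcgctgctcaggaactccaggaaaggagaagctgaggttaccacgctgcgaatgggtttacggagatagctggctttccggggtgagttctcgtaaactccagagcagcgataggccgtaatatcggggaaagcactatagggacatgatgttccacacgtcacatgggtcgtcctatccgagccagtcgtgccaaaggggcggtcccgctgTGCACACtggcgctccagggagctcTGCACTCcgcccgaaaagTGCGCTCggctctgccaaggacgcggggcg
Mt2: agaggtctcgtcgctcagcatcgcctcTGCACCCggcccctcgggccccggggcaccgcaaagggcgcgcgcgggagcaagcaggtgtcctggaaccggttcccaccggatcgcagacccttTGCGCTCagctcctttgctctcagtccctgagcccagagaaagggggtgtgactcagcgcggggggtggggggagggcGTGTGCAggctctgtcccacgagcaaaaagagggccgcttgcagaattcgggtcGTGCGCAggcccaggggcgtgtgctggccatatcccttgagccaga
Mt1 held 3 matches and Mt2 held 4, and 1.97% of all promoters held at least 3. From the annotated start they begin at -23, 2 and 20 in Mt1 and at -223, -128, -50 and 4 in Mt2. Those at 2, 20 and 4 lie after the start. A match is a string of letters and not a measured binding site.

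Mt1 and Mt2 are also in the list of the glucocorticoid response, and of its other 12 genes 2 were called higher, none lower, and 2 lay below the 1-month range. Plin4, a lipid droplet coat protein gene, was at 2.08, 2.17 and 5.72 FPKM at 1 month and 13.2 FPKM at 4 months (1.82), and Zbtb16, the transcription factor PLZF, at 5.19, 6.30 and 17.1 FPKM and then at 26.6 FPKM (1.56). Both were higher in replicate 3 than in the other 1-month libraries. Fkbp5, a cochaperone of the receptor that is a standard readout of the hormone, was at 3.42, 3.31 and 14.5 FPKM and then at 8.08 FPKM, inside the range. Tsc22d3 differed by -0.01, Sgk1 by 0.46 and Klf9 by -0.20. The median of the list was -0.08, and 0.29 without replicate 3. Of 12 genes tied to thyroid hormone, which times cerebellar maturation, Hr, a corepressor of its receptor, was called higher at 14.96, 14.9 and 30.6 FPKM and then 40.5 FPKM (1.05), and without replicate 1 or replicate 2 it was not. Thra, the main receptor gene, differed by 0.56, and Nrgn and Pcp2, described above, were the 2 called lower.

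Cholesterol synthesis genes, which serve myelin and synapse growth, lay lower, with 3 of 22 called lower, none higher, 17 below the range and a median of -0.50. Sc4mol, now Msmo1, was at 35.02, 32.4 and 43.3 FPKM at 1 month and 17.4 FPKM at 4 months (-1.03). Nsdhl and Ebp had differences of -1.02 and -1.02, and all 3 encode enzymes of the later steps. The 3 calls lay close to the 2-fold limit. Only Ebp was called without replicate 3, Ebp was not called without replicate 1, 5 genes were called without replicate 2, and none was called once libraries were recentred on one median, while the median difference of the list was then -0.38. Srebf2, the transcription factor of the pathway, differed in the other direction by 0.68, above the range. Insig1 differed by -0.65 and Sqle by -0.56.

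Of 20 clock genes, 1 was called higher and none lower, 5 lay above the range, 6 below it and 9 within, and the median was 0.08. The repressor genes Per1, Per2 and Cry2 were above the range with differences of 0.84, 0.81 and 0.70, and the activator gene Arntl was below it with -0.72. The hour of tissue collection is not given in the labels. None of 18 immediate early genes was called, with a median of 0.01, and Fos stood at 7.97, 6.80 and 20.8 FPKM and then at 7.01 FPKM. None of 18 genes of the extracellular matrix and perineuronal nets was called, although Hapln4, a link protein of nets, was above the range at 47.3 FPKM against 31.3, 33.5 and 15.6 FPKM. Among 20 collagen genes, Col16a1 and Col5a1 were higher, with differences of 1.34 and 1.12, and the median was 0.35, below the 0.45 of replicate 3 on the same scale. Without replicate 3 there were 4 calls and the median was 0.57, and without replicate 1 the median was 0.22.

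Neurons of neighbouring brainstem gave the highest median of the 41 lists on this scale, 0.97, with 6 of 13 examined genes called higher and none lower. The filter averages in the 4-month value, so low genes could pass through it. Without the filter, 6 of 20 were called and the median was 0.72. Without replicate 2 the histone median was above that of brainstem (1.02 against 0.77), as with quantile normalization (1.06 against 1.00). The gap was wider with a pseudocount of 5 FPKM (0.62 against 0.38). With a filter at a mean of 5 FPKM, 2 brainstem genes were left, and the medians were 0.96 against -0.0027. Slc18a3, the vesicular acetylcholine transporter, was at 0.156, 0 and 2.83 FPKM at 1 month and 6.88 FPKM at 4 months (2.26). Prph, an intermediate filament of motor and sensory neurons, was at 0.328, 0.789 and 4.64 FPKM and then at 9.39 FPKM (2.13), and Slc5a7, the choline transporter, at 0.627, 0.633 and 3.96 FPKM and then at 8.49 FPKM (2.01). In all 3 genes replicate 3 stood well above replicates 1 and 2 and below 4 months. Chat, which makes acetylcholine and shares its locus with Slc18a3, rose by 1.72, the peptide gene Calca by 1.20 and the hindbrain patterning gene Hoxb3 by 1.02. Slc17a6, Glra1, Th and Hoxa5, the most abundant of the others, differed by -0.29, 0.29, 0.90 and 0.65. The summed FPKM of the list was 50.0, 47.8 and 91.6 at 1 month and 96.1 at 4 months, so replicate 3 and the 4-month library were alike in this sum. Gene by gene, 8 of the 13 lay above the 1-month range, replicate 3 included. Without replicate 3, 10 genes were called and the median was 1.42. Hoxb3 was not called without replicate 1 or replicate 2, nor Calca without replicate 2. Of genes of other lists given above, Slc6a5, Zbtb16, Plin4, Hr and Grin3b showed the same order of libraries. They were picked after their values were seen, and how many of all genes share this order was not counted. How much brainstem each dissection held, and its part in any difference, was not tested.

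Of other cell types that a dissection could hold, choroid plexus and ependymal genes were called lower in 2 of 15 (13.3%) and blood genes in 2 of 5 (40.0%), against 3.78% of all genes. The summed FPKM of the choroid plexus and ependymal list was 758, 727 and 575 at 1 month and 317 at 4 months, most of it from Ttr alone. Of these 15 genes, 5 lay above the range and 7 below it, and the median was -0.21, near that of all genes. Ttr, the transthyretin gene of choroid plexus, was lower at 711, 680.4 and 536 FPKM and then 274 FPKM (-1.22), and Dynlrb2, a cilium gene, was listed at 0 at 4 months after 2.24, 3.32 and 1.70 FPKM. Of 16 endothelial genes, Vwf, the clotting protein von Willebrand factor, was higher at 5.29, 5.28 and 7.41 FPKM and then 19.3 FPKM (1.55), and Ly6c1 was lower with a difference of -1.003, a call that ended without replicate 1 or replicate 2 and under the 3 other scalings. Cldn5, the tight junction claudin of brain vessels, differed by 0.10. None of 11 pericyte and smooth muscle genes was called, and of 14 meningeal genes Slc6a13, a GABA and taurine transporter gene, rose by 1.04. Of 9 forebrain genes, Tcf7l2 was lower with a difference of -1.33. Bpgm, of the blood list, was lower with a difference of -1.21, and the list median was -0.99, or -0.22 without replicate 3. The haemoglobin gene Hba-a2 was at 78.1, 72.1 and 373 FPKM at 1 month and 64.3 FPKM at 4 months, with replicate 3 far above the rest, and the summed FPKM of the blood list was 161, 149 and 630, then 119.

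Among genes of histone H3 lysine 4 methylation, 2 of 21 were higher, with a median of -0.17. Mll2, read here as Kmt2d, the gene floxed in these mice, was at 18.2, 19.9 and 22.3 FPKM at 1 month and 46.6 FPKM at 4 months (1.18). Setd1b, a related methyltransferase gene, was at 4.17, 5.72 and 3.20 FPKM and then at 10.6 FPKM (1.14). Setd1b has a second symbol in the table, mKIAA1076, and their sum differed by 1.19, also called higher. Without replicate 3 Setd1b was not called and the subunit gene Dpy30 was called lower. The relatives Wbp7 (Kmt2b) and Mll1 (Kmt2a) differed by 0.63 and -0.05 (-0.23 when Mll1 was summed with the other symbol of that gene), and Mll3 (Kmt2c) by -0.17. The demethylase genes Kdm1a and Kdm5c differed by -0.89 and 0.26, and the complex subunit gene Ash2l by -0.61. Of 11 DNA methylation genes, Tet1, which oxidises methylcytosine, went from 11.1, 10.001 and 16.6 FPKM to 4.81 FPKM (-1.19), a call that ended without replicate 3. Of the study's own subjects, Dnmt3a was at 33.2, 36.04 and 57.2 FPKM and then 37.99 FPKM, inside the range because of replicate 3. The repressor gene Bcl6 was at 16.9, 16.1 and 13.4 FPKM and then 24.7 FPKM (0.64), and Sirt1, a deacetylase, at 11.2, 10.9 and 10.6 FPKM and then 8.63 FPKM (-0.30), neither called.

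**Figure D5:**
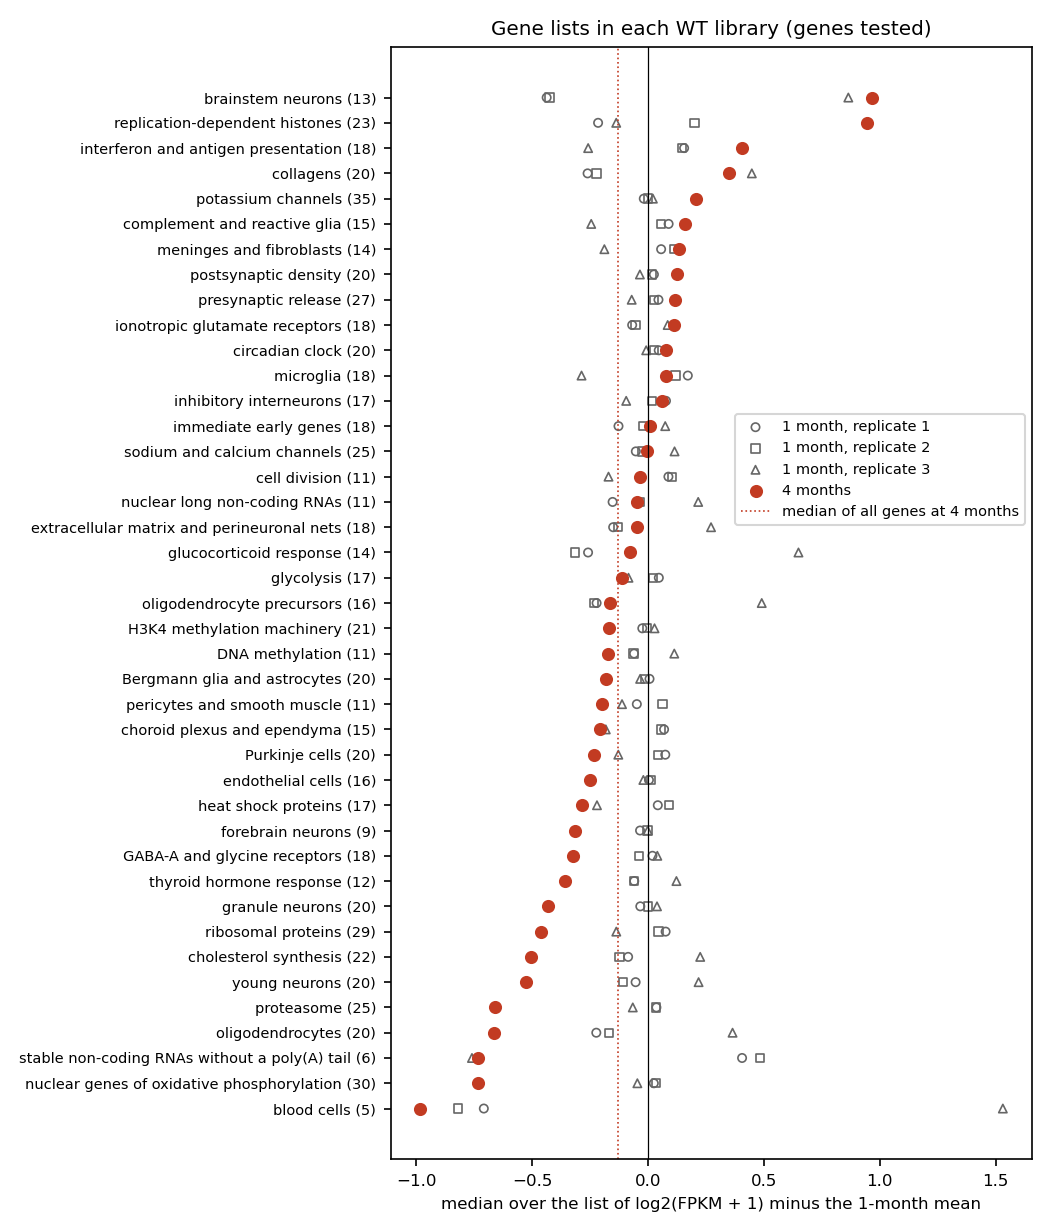
For each of the 41 gene lists (genes examined in brackets), the median over its genes of log2(FPKM + 1) minus the 1-month mean (x axis), shown for the 3 libraries of 1 month (open symbols) and for 4 months (red), with the median of all genes dotted at -0.13. Brainstem neurons at 0.97 and histones at 0.94 are at the top, and replicate 3 (triangle) stands apart in the brainstem, blood, glucocorticoid and oligodendrocyte lists.

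The largest single rises were in part calcium-binding genes of neutrophils. Among the 15 largest in that direction by the naming rule, S100a9 was at 1.08, 0.552 and 1.83 FPKM at 1 month and 21.1 FPKM at 4 months (3.40) and its partner S100a8 at 2.67, 2.73 and 0.519 FPKM and then 18.8 FPKM (2.85). Lcn2, which sequesters bacterial siderophores, was at 0.127, 0.393 and 1.91 FPKM and then 4.43 FPKM (1.71). Retnlg, another neutrophil gene, chosen after its values were seen and under the filter, was listed at 0 in all libraries of 1 month and at 2.19 FPKM at 4 months, while the 5 other neutrophil genes looked at, also under the filter, had differences from 0.34 to 0.93 and were not called. Myh6, the alpha cardiac myosin heavy chain gene, was at 0.225, 0.139 and 0.350 FPKM and then 7.87 FPKM (2.84), while its neighbour Myh7 stayed at 0.209, 0.185 and 0.450 FPKM and 0.349 FPKM. Of the 15 symbols, 11 are older or clone names that the annotation does not use as current, such as Apeg3 and mKIAA0676.

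Among the 15 largest falls, 12 carry a current symbol. Beside those described, Krtcap2, a subunit of the oligosaccharyltransferase, was at 49.9, 48.9 and 34.2 FPKM and then 8.01 FPKM (-2.31), and Chgb, a granin of secretory vesicles, was at 211, 193 and 199 FPKM and then 49.3 FPKM (-2.003). Some pairs show 2 names of 1 gene moving against each other. Srsf3, a splicing factor gene, was called higher at 1.44, 16.6 and 0.919 FPKM and then 21.4 FPKM, while Sfrs3, its older name, was at 29.97, 17.5 and 27.7 FPKM and then 6.93 FPKM, and their sum differed by -0.14. Of the 92 called symbols with another name of the same gene in the table, 29 kept the call after summing, 63 had no call and 0 turned.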

How the data were processed

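RNA of 4 cerebellar libraries was analysed. The authors deposited 1 table of FPKM values with 1 column per library, and the submitters' processing notes name TopHat2 2.1.0, Bowtie 1.1.2, Cuffdiff and build mm9. No settings, annotation or use of strand is given in the sources used here. Overlapping genes on opposite strands may therefore share reads. A row of the table gives older column names, in which the 4-month and 1-month WT libraries are named differently, and it was removed. Columns were mapped by title, with 0 left unmapped.

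FPKM values are not counts, so the depth is unknown in absolute terms and no counting interval is given. Relative depth was taken from the commonest ratio of values under 0.3 FPKM (18.4% to 23.7% of ratios lay there). Values were taken as log2(FPKM + 1), which understates the change of low genes, and genes averaging under 1 FPKM were left out. A call needed a 4-month value outside the 1-month range and 2-fold from its mean, and gives no p-value. limma 3.58.1 in R 4.3.3 was run beside it, with the lone library assumed to vary like the others. Both were also run on simulated data, whose outcome is not given here.

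The members and the 41 gene lists (777 of 791 symbols found) were chosen with earlier results of these data known. Named genes are the 15 largest differences in each direction among called genes that reach 5 FPKM at the higher age, without small RNA, accession-like, Riken clone, Gm or LOC symbols (KIAA clone names stayed in). From each list up to 6 called members and up to 4 other members of highest mean are named, with Mll2, Dnmt3a, Bcl6 and Sirt1. Some genes that this rule names are not reported here. Other members, given for their place above or below the range, were chosen after their values were seen. Symbols were matched to RefSeq tables of GRCm38.p6 (74.7% matched), used for names and promoter sequences only, since the build differs from mm9. Mll2 is an older name of Kmt2d and of Kmt2b, and it was read as Kmt2d because Wbp7 is Kmt2b alone. Alternatives were other pseudocounts, filters, scalings and folds, limma, leaving out each 1-month library, and, added after the data were seen, summing the names of 1 gene. Python 3.11.15, pandas 2.3.3 and matplotlib 3.10.9 were used.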

Additional observations from a re-analysis of the deposited data

How the results depend on the processing

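The count of genes called higher (369) and lower (556) depended on the threshold. It was 626 and 891 with a pseudocount of 0.1 FPKM, 122 and 216 with 5 FPKM, 1543 and 2343 at a fold of 1.5, and 4330 and 6968 beyond the range with no fold. A filter at a mean of 5 FPKM gave 234 higher, and libraries shifted to one median gave 582. With limma at an adjusted p under 0.05, 14 genes were higher and 4 lower, against 1926 and 3122 at an unadjusted p under 0.05. Leaving out each 1-month library gave 378 to 420 higher and 542 to 637 lower, and 308 to 340 and 463 to 507 of the calls were kept. Quantile normalization, rescaling without small RNA symbols, no filter and summing the names of 1 gene gave 333 to 537 higher and 416 to 563 lower. The 2 scalings gave 56.3% and 51.8% of calls as higher, against 39.9%.

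The median over all genes (-0.13) was -0.14 and -0.0825 with pseudocounts of 0.1 and 5 FPKM, -0.0538 with no filter, -0.17 with a filter at 5 FPKM, -0.00822 with libraries shifted to one median, -0.0617 after rescaling, -0.0411 after quantile normalization and -0.14 to -0.11 leaving out a 1-month library. Of 410 list medians under alternatives, 305 moved by less than 1 SD of the 1-month libraries. The sign turned in 33 values over 15 lists, 7 of them in lists whose median lay outside those of the 1-month libraries. Of 100 calls in the lists, 69 stood with any 1-month library left out and under the 3 other scalings. Among those 7, with a filter at 5 FPKM the medians became -0.0027 for brainstem neurons (2 genes left), -0.22 for interferon and antigen presentation, -0.0018 for ionotropic glutamate receptors and 0.10 for pericytes. Leaving out a 1-month library gave -0.0649 to 0.0843 for clock genes and -0.0167 to 0.194 for complement and reactive glia, each lowest without replicate 3. Glycolysis became 0.0085 with libraries shifted to one median. Of 626 values of named genes, 546 moved by less than 1 SD and 0 changed sign. These genes were chosen for large differences beyond the 1-month range, so their sign had little room to turn. The causes of these changes were not tested.

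No paired analysis was possible because the single library of 4 months carries no replicate number. Only 1 library stands for 4 months and depth is known only in relative terms, so low genes and single calls carry an error that cannot be given.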

Other observations

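Symbols of short RNAs gave calls in both directions. Of 21 microRNA symbols examined 7 were higher and none lower, of 12 Snord symbols 4 were higher and none lower, and of 31 Snora symbols 6 were higher and 4 lower. The filter averages in the 4-month value. A symbol listed at 0 in every library of 1 month passed it through that value alone and was never open to a lower call. No count without the filter is given for these symbols, so their split into higher and lower is not read. Mir654, a microRNA precursor, was listed at 0 FPKM in every library of 1 month and had the smallest adjusted p in limma with Benjamini-Hochberg adjustment, 3.5e-04. Of the 18 genes that passed in limma, several were listed at 0 at 1 month, where the fitted difference depends on the pseudocount.

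Further genes called lower are named here after their values were seen. Atox1, a copper chaperone, was at 64.0, 66.8 and 50.7 FPKM at 1 month and 16.4 FPKM at 4 months. Pfdn2, a prefoldin subunit, was at 26.7, 23.4 and 17.0 FPKM and then 5.75 FPKM, and Mif, a cytokine with tautomerase activity, was at 90.8, 88.8 and 60.2 FPKM and then 22.5 FPKM. The RNA polymerase II subunit genes (Polr2) had 3 of 12 lower and none higher. Solute carrier genes (Slc) had 8 of 240 higher and 2 lower, where 2.51% of all genes were higher and 3.78% lower. Their median difference was 0.17. None of 66 protocadherin genes was called.

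Other genes called higher included Cacng4, an auxiliary subunit of AMPA receptors, at 7.49, 6.93 and 10.8 FPKM at 1 month and 26.5 FPKM at 4 months. Xdh, which makes uric acid, was at 1.60, 1.41 and 0.565 FPKM and then 6.76 FPKM, and Tgm2, a transglutaminase, was at 4.49, 4.56 and 3.44 FPKM and then 13.4 FPKM. These too were chosen after their values were seen.

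The table splits 663 genes over several symbols. Zfp692, a zinc finger gene, was called lower at 13.3, 5.78 and 12.4 FPKM at 1 month and 1.32 FPKM at 4 months, while Zfp692-ps was called higher at 1.58, 11.2 and 2.61 FPKM and then 27.2 FPKM. Their sum differed by 0.83 and was not called. Accession-like symbols made up 47 of the 369 genes called higher and 101 of the 556 called lower.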
